A study of Mus musculus with 5 samples.

Results

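The Nrf2 antioxidant target genes described here were 10 genes chosen by name, Nqo1, Gclc, Gclm, Txnrd1, Srxn1, Hmox1, Gsr, Slc7a11, Gpx2 and Cbr3, and all 10 were found among the 46095 gene records of the deposited mouse liver expression table. Liver RNA of C57BL/6 mice was sequenced in 5 libraries, 1 for each group. The groups were the liver of a 2-month-old (2M) Srsf2 hepatocyte knockout mouse (HKO, genotype label HKO8), the liver of a 2M Srsf2f/f mouse labelled wild type, the tumor and the non-tumor section of 12M liver, and the liver of a 12M Srsf2f/f mouse labelled wild type. HKO mice carry loxP-flanked Srsf2 alleles and an albumin-promoter Cre (Alb-cre), which acts in hepatocytes, so most other cell types of the liver keep the gene. The study also describes Srsf2 protein coming back in adult HKO livers. The label of the non-tumor section gives the HKO8 genotype and that of the tumor gives none, and both sample codes carry the same animal number. Sample codes of the 12M libraries start with M13, while their titles and age labels give 12 months, which is the age used here.

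Nrf2, encoded by Nfe2l2, is a transcription factor that is normally held by Keap1 and handed to the Cul3 ubiquitin ligase for destruction. Oxidants and electrophiles modify Keap1, Nrf2 then accumulates, pairs with a small Maf protein and binds antioxidant response elements near genes of detoxification. In the liver these genes make glutathione, recycle thioredoxin and glutathione, reduce quinones and carbonyls, and degrade heme. The level unit throughout is FPKM, which scales fragments to gene length and to the library total, so that levels of different genes can be set side by side.

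Promoter sequence from RefSeq (GRCm38.p6) was at hand for 7 of the 10 members in 9 windows of 250 bases before and 50 bases after a transcription start. Gclc, Hmox1 and Gsr are named only. The antioxidant response element core TGACNNNGC was searched on both strands. In the 250 bases before a start it was found in 2 of 9 windows, those of Gclm and of 1 of the 3 Txnrd1 starts, against 10.2% of 32851 windows of all genes. A second pattern, TGANTCA, the site of AP-1 and Maf factors, was added after the windows had been seen and can overlap the first, since both begin with TGA. It was found in 2 places before the Srxn1 start, in no other member window, and in 6.75% of all windows. The following stretches show these matches in capitals (the core on the opposite strand for Gclm and Txnrd1, TGANTCA for Srxn1), with the last bases before the Cbr3 start, the gene with the highest tumor against non-tumor ratio among members over 5 FPKM, as one without either match. All are written 5′ to 3′ on the strand of the gene, which is the plus strand for these 4 genes. A match describes letters only, and the absence of one covers these windows only.
Gclm, chr3:122245383-122245471: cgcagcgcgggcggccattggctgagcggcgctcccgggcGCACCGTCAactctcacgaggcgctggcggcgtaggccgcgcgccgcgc
Txnrd1, chr10:82859074-82859162: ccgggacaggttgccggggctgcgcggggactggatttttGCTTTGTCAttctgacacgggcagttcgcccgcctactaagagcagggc
Srxn1, chr2:152105404-152105523: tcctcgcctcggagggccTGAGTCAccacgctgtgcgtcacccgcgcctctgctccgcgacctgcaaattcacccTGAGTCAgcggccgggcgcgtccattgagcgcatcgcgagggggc
Cbr3, chr16:93683099-93683218: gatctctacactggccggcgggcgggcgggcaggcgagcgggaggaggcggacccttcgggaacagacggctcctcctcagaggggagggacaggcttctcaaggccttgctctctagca
The core begins 134 bases before the Gclm start and 92 bases before the Txnrd1 start, and the Srxn1 matches begin 102 and 45 bases before the start. Srxn1 also has a core on the opposite strand that begins 28 bases after the start.

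Srsf2 itself had 22.7 FPKM in the library labelled 2M HKO and 14.6 in that labelled 2M Srsf2f/f, and 15.6, 17.6 and 15.7 in the 12M tumor, non-tumor and Srsf2f/f libraries. The deleted gene was thus not lower in the library labelled 2M HKO, and this table cannot check that label. "2M HKO" below stands for the library labelled so. Reads of other liver cells and of whatever the deleted allele transcribes are in these values. The deposited FPKM were multiples of 1 step per library, and 34969834 to 36104176 fragments per library were worked back from them. With 1 library per group no p-value can be given, and the 95% intervals below cover counting error only, not differences between mice. A call of higher or lower needed a log2 ratio of FPKM past 1 or -1, with 0.1 added to each value, and a level above 5 FPKM in 1 or both of the compared libraries. All 8 hepatocyte markers were over 1 FPKM in every library, with summed levels of 55430 to 70560 FPKM. Single markers differed more. In 2M HKO over 2M Srsf2f/f liver 2 of the 8 were called higher and 2 lower, where 19.2% and 6.98% of all genes were. In tumor over non-tumor tissue 1 was called lower, and in tumor over 12M Srsf2f/f liver 2 were. The shares of all genes called lower there were 8.43% and 9.49%. In bulk tissue, fewer cells of a type and less RNA per cell cannot be told apart.

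The members divided into those highest in the 2M HKO liver and those highest in the tumor. Nqo1, Txnrd1, Srxn1, Hmox1 and Gsr, 5 of the 10, had their highest level in the 2M HKO liver. Gclc, Gclm, Slc7a11, Gpx2 and Cbr3, the other 5, had it in the tumor. For Gclm the margin was small, at 92.4 FPKM against 89.7 in the 2M HKO liver, with overlapping counting intervals. After rescaling, its log2 ratio of tumor over non-tumor tissue was -0.11. The lowest level was in the 2M Srsf2f/f liver for 7 members, in the 12M Srsf2f/f liver for Txnrd1, in both for Slc7a11 (0 fragments), and in the tumor for Hmox1. Summed over the members, the level was 542.8 FPKM in the 2M HKO liver against 221.5 in the 2M Srsf2f/f liver. At 12M the sum was 529.5 FPKM in the tumor, 333.2 in non-tumor tissue and 246.3 in the Srsf2f/f liver.

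**Figure D1:**
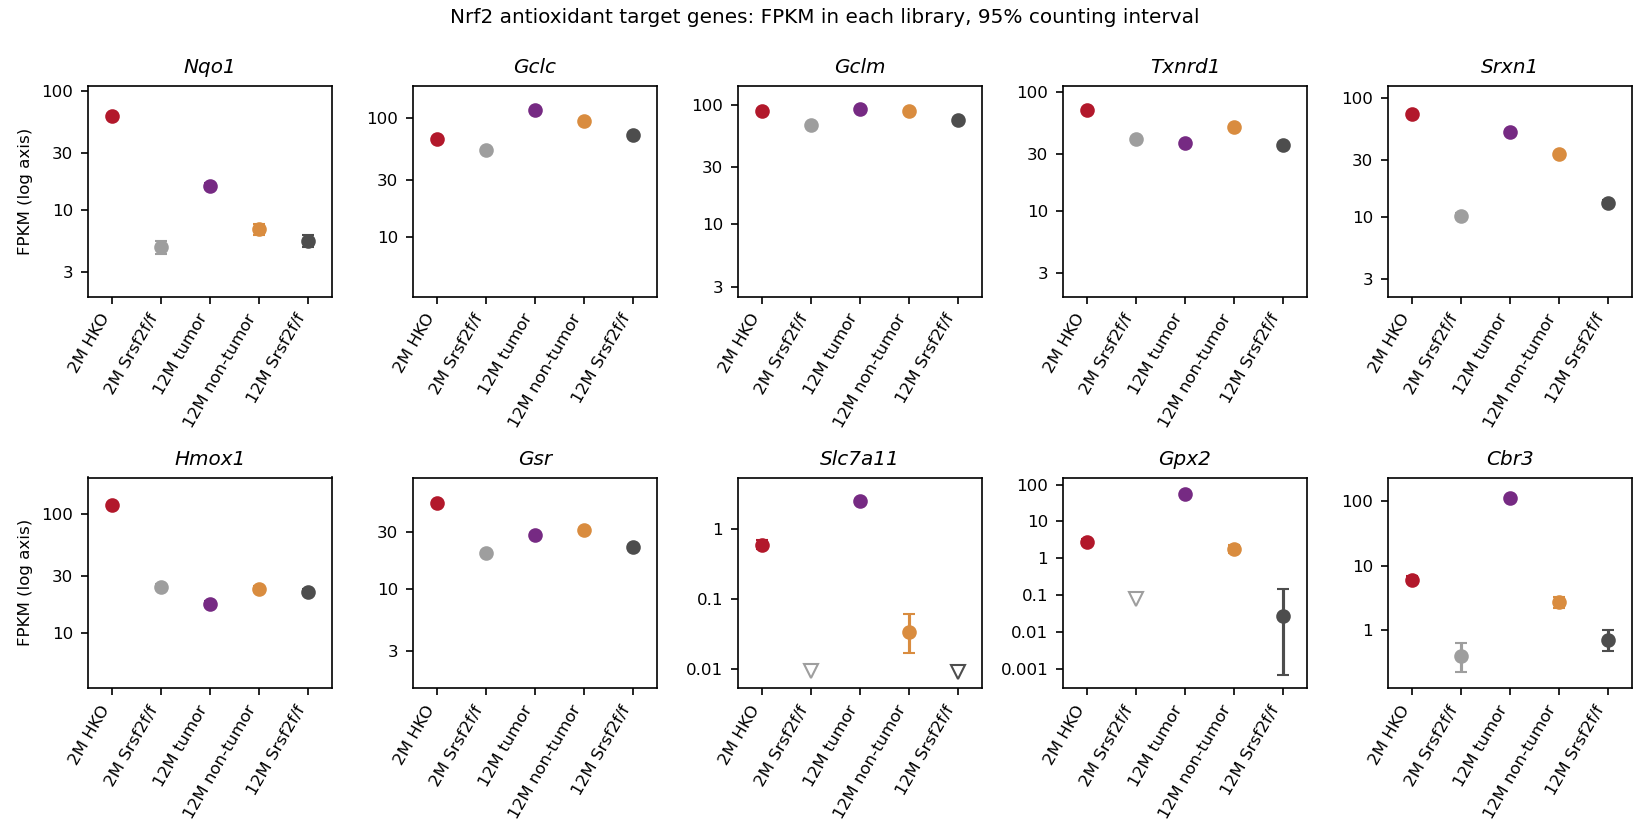
FPKM of each member (vertical log axis, scaled per gene) in the 2M HKO, 2M Srsf2f/f, 12M tumor, 12M non-tumor and 12M Srsf2f/f libraries, 1 point per library, with the 95% counting interval where it is wider than the point. Open triangles mark libraries with 0 fragments and stand at the level of 3 fragments; Gpx2 and Cbr3 reach 56.5 and 111 FPKM in the tumor, while Nqo1 and Hmox1 are highest in the 2M HKO liver.

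Among the enzymes that reduce quinones and carbonyls, Nqo1 and Cbr3 were each called higher both in the 2M HKO liver and in the tumor, with the larger ratio at 2M for Nqo1 and in the tumor for Cbr3. Nqo1 (chr8:107388225-107403205, minus strand of GRCm38, as are all gene positions below) encodes NAD(P)H quinone dehydrogenase, which reduces quinones without forming semiquinone radicals. It had 61.9 FPKM in the 2M HKO liver against 4.86 in the 2M Srsf2f/f liver. At 12M, Nqo1 had 16.0 FPKM in the tumor, 6.92 in non-tumor tissue and 5.50 in the Srsf2f/f liver. The 2M HKO liver thus stood above all other libraries, the tumor came second, and the counting intervals of the Srsf2f/f livers overlapped. The ratio for Nqo1 was 12.7 (11.2 to 14.5) in 2M HKO over 2M Srsf2f/f liver, and 2.31 (2.04 to 2.61) in tumor over non-tumor tissue.

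Cbr3 (chr16:93683219-93690991, plus strand) encodes a carbonyl reductase that acts on ketones and quinones. It had 6.10 FPKM in the 2M HKO liver, or 257 fragments, against 0.392 FPKM, or 16 fragments, in the 2M Srsf2f/f liver. Its level in the 12M tumor was 111 FPKM, against 2.72 in non-tumor tissue and 0.707 in the Srsf2f/f liver. The tumor was far above every other library, and the intervals of the Srsf2f/f livers overlapped. The ratio for Cbr3 was 40.9 (33.9 to 49.8) in tumor over non-tumor tissue, 15.6 (9.40 to 27.6) in 2M HKO over 2M Srsf2f/f liver and 157 (109 to 235) in tumor over 12M Srsf2f/f liver.

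Cbr1 (chr16:93607837-93610349, plus strand), the related carbonyl reductase next to Cbr3 on the chromosome, was abundant in every library. Cbr1 had 207.7 FPKM in the 2M HKO liver against 59.8 in the 2M Srsf2f/f liver. At 12M it had 241.5 FPKM in the tumor, 107.8 in non-tumor tissue and 67.1 in the Srsf2f/f liver. Cbr3 made up 31.5% of the summed FPKM of both genes in the tumor and 2.46% in the non-tumor section. This share was 2.85% in the 2M HKO liver, against 0.651% in the 2M Srsf2f/f liver. The transcripts of the 2 genes shared 1 of the 1121 stretches of 50 bases in Cbr3.

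The glutathione synthesis genes were abundant in every library and called in no comparison. Gclc (chr9:77754518-77794489, plus strand) encodes the catalytic subunit of glutamate-cysteine ligase, the rate-limiting enzyme of glutathione synthesis. Gclc had 66.9 FPKM in the 2M HKO liver against 53.7 in the 2M Srsf2f/f liver, and 116 in the 12M tumor, 93.9 in non-tumor tissue and 71.6 in the 12M Srsf2f/f liver. Gclm (chr3:122245557-122267215, plus strand) encodes the modifier subunit, which eases feedback inhibition of that enzyme. It had 89.7 FPKM in the 2M HKO liver against 67.8 in the 2M Srsf2f/f liver, and 92.4 in the tumor, 89.3 in non-tumor tissue and 74.9 in the 12M Srsf2f/f liver. The counting intervals of Gclm in the tumor and the 2M HKO liver overlapped, as did those of the 2M HKO liver and the non-tumor section. The log2 ratios were 0.31 for Gclc and 0.05 for Gclm in tumor over non-tumor tissue, and 0.32 and 0.40 in 2M HKO over 2M Srsf2f/f liver. Rescaling the libraries by their median ratio turned Gclm to -0.11 in tumor over non-tumor tissue. Exons of Gclm overlap those of Gm17494 on the opposite strand and of Gm6061 on the same strand, and whether the counting used strand is not given in the sources used here. The catalytic subunit was below the modifier subunit in the 2M HKO liver, at a ratio of 0.745, and in the 2M Srsf2f/f liver, at 0.792. This ratio of Gclc to Gclm was 1.26 in the tumor, 1.05 in non-tumor tissue and 0.956 in the 12M Srsf2f/f liver.

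Slc7a11 (chr3:50364936-50499087, minus strand) encodes xCT, the cystine importer that feeds glutathione synthesis, and no fragment of it was counted in either Srsf2f/f liver. It had 0.594 FPKM, or 198 fragments, in the 2M HKO liver and 0 fragments in the 2M Srsf2f/f liver. Its tumor level was 2.52 FPKM, or 838 fragments, against 0.0338 FPKM, or 11 fragments, in non-tumor tissue and 0 in the 12M Srsf2f/f liver. The tumor was highest, and a count of 0, taken as up to 3 fragments, allows a level of up to 0.0093 FPKM in either Srsf2f/f liver. The ratio was 74.5 (41.4 to 149.8) in tumor over non-tumor tissue, at least 63.9-fold higher in 2M HKO than in 2M Srsf2f/f liver, and at least 272-fold higher in tumor than in 12M Srsf2f/f liver. Slc7a11 passed 5 FPKM in no library and could therefore be called in no comparison. Of the 9794 stretches of 50 bases in its transcripts, 181 also occur in transcripts of other genes. These include Gm14150 with 104, Tuba1a with 102 and Gm3756 with 100.

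Gsr and Gpx2 recycle and use glutathione, and they differed in which library was highest. Gsr (chr8:33653238-33698162, plus strand) encodes glutathione reductase, which returns oxidized glutathione to its reduced form with NADPH. Gsr had 52.6 FPKM in the 2M HKO liver against 19.9 in the 2M Srsf2f/f liver, a ratio of 2.65 (2.51 to 2.79). At 12M it had 28.3 FPKM in the tumor, 31.1 in non-tumor tissue and 22.4 in the Srsf2f/f liver, and it was called in none of the 12M comparisons. The log2 ratio of tumor over 12M Srsf2f/f liver was 0.33 as deposited and -0.02 after rescaling.

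Gpx2 (chr12:76792335-76795554, minus strand) encodes a glutathione peroxidase best known from the epithelium of the gut. It had 2.78 FPKM, or 107 fragments, in the 2M HKO liver and 0 fragments in the 2M Srsf2f/f liver, which at 3 fragments allows a level of up to 0.0804 FPKM. Its tumor level was 56.5 FPKM, or 2176 fragments, against 1.75 FPKM, or 66 fragments, in non-tumor tissue and 1 fragment in the 12M Srsf2f/f liver. The tumor stood far above the other libraries. The ratio for Gpx2 was 32.2 (25.2 to 41.8) in tumor over non-tumor tissue and at least 34.5-fold higher in 2M HKO than in 2M Srsf2f/f liver, where it stayed under 5 FPKM and could not be called. Over the 12M Srsf2f/f liver, whose count was 1 fragment, the tumor ratio was 2118 with an interval of 379.8 to 83700. Of the 1018 stretches of 50 bases in Gpx2 transcripts, 192 also occur in Gpx2-ps1, a pseudogene listed at 0 FPKM in all 5 libraries, so Gpx2 fragments could be placed uncertainly. Gpx1, the main glutathione peroxidase of hepatocytes, ran the other way at 12M. Gpx1 had 776.5 FPKM in the tumor, 1579 in non-tumor tissue and 1754 in the Srsf2f/f liver, and 1943 in the 2M HKO liver against 1997 in the 2M Srsf2f/f liver. Its log2 ratio of tumor over non-tumor tissue was -1.02, which passed the rule for a lower call.

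In the thioredoxin branch, Srxn1 was called in 3 comparisons and Txnrd1 in none. Srxn1 (chr2:152105524-152111376, plus strand) encodes sulfiredoxin, which repairs overoxidized peroxiredoxins. It had 73.6 FPKM in the 2M HKO liver against 10.1 in the 2M Srsf2f/f liver, a ratio of 7.25 (6.78 to 7.75). At 12M, Srxn1 had 51.9 FPKM in the tumor, 33.6 in non-tumor tissue and 13.1 in the Srsf2f/f liver. The 2M HKO, tumor and non-tumor libraries were all above both Srsf2f/f livers, with no overlap of counting intervals. Srxn1 was the one member called in non-tumor section over 12M Srsf2f/f liver, at a ratio of 2.56 (2.40 to 2.73). Tumor over non-tumor tissue gave 1.55 (1.48 to 1.62), short of a call.

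Txnrd1 (chr10:82833951-82897724, plus strand) encodes the cytosolic thioredoxin reductase. It had 70.5 FPKM in the 2M HKO liver against 40.5 in the 2M Srsf2f/f liver, a ratio of 1.74 (1.68 to 1.80). At 12M it had 36.9 FPKM in the tumor, 50.5 in non-tumor tissue and 35.9 in the Srsf2f/f liver. The intervals of the tumor and the 12M Srsf2f/f liver overlapped. The log2 ratio of Txnrd1 in tumor over non-tumor tissue was -0.45, and in tumor over 12M Srsf2f/f liver it was 0.04 as deposited and -0.31 after rescaling.

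Hmox1 (chr8:75093618-75100593, plus strand) encodes heme oxygenase 1, which degrades heme and is also expressed in macrophages that clear red cells. Hmox1 was the most abundant member in the 2M HKO liver, at 118 FPKM, against 24.2 in the 2M Srsf2f/f liver, a ratio of 4.89 (4.61 to 5.19). At 12M it had 17.5 FPKM in the tumor, 23.4 in non-tumor tissue and 22.2 in the Srsf2f/f liver. The 2M HKO liver stood alone, while the intervals of the 2M Srsf2f/f, non-tumor and 12M Srsf2f/f libraries overlapped as neighbours in order and the tumor was lowest. The ratio of tumor over non-tumor tissue was 0.747 (0.687 to 0.812).

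Macrophage markers moved with Hmox1 at 2M. The summed level of 6 Kupffer cell markers was 704.6 FPKM in the 2M HKO liver against 160 in the 2M Srsf2f/f liver, and 5 of the 6 were called higher (4 after rescaling). In the tumor this sum was 5.95 FPKM, against 128 in non-tumor tissue and 122 in the 12M Srsf2f/f liver, and Clec4f, Timd4 and Marco were each under 0.1 FPKM in the tumor. The sum of 7 monocyte and macrophage markers was 864 FPKM in the 2M HKO liver against 90.2 in the 2M Srsf2f/f liver, and 332, 239 and 83.4 in the 12M tumor, non-tumor and Srsf2f/f libraries. All 6 of the monocyte and macrophage markers that were over 5 FPKM were called higher at 2M. Of all genes tested at 2M, 19.2% were called higher and 6.98% lower. The part of these cells in the Hmox1 level, and in those of the other members at 2M, was not tested. Neutrophil markers summed to 142 FPKM in the 2M HKO liver against 2.13 in the 2M Srsf2f/f liver, and the sums of stellate cell markers were 123 and 12.98 FPKM.

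**Figure D2:**
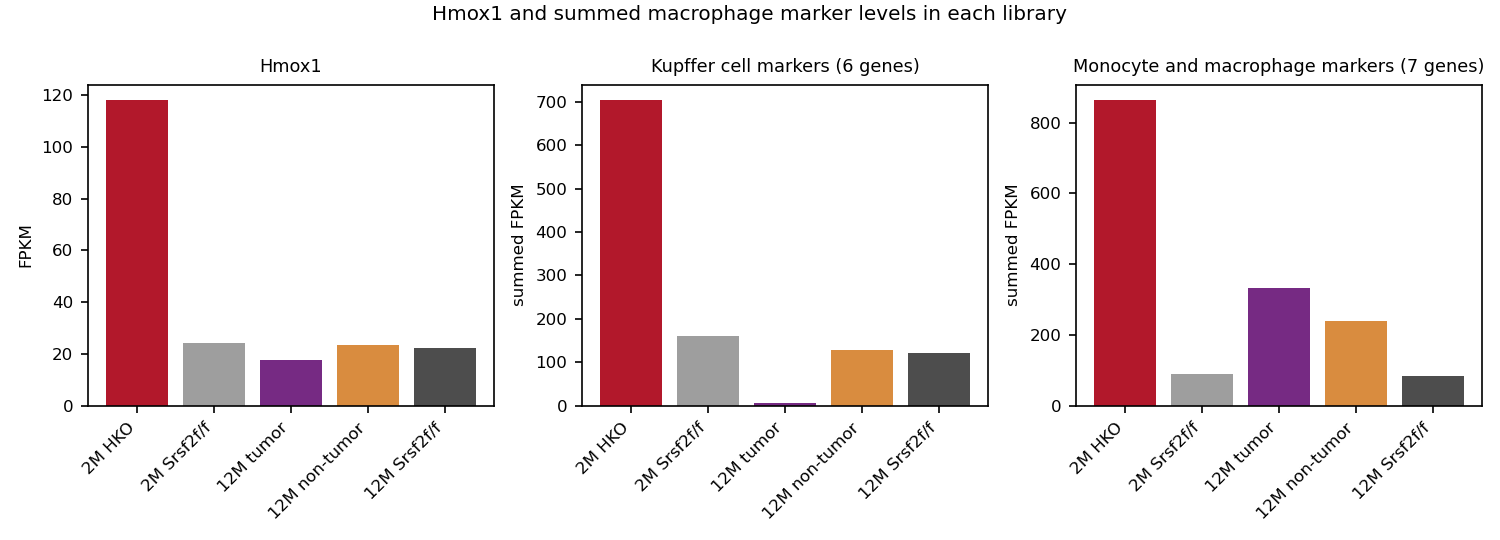
Hmox1 FPKM (left) and the summed FPKM of 6 Kupffer cell markers (middle) and 7 monocyte and macrophage markers (right) in each library, 1 bar per library, linear axes from 0. All are highest in the 2M HKO liver, at 118, 704.6 and 864 FPKM, and the Kupffer sum is 5.95 FPKM in the tumor, where Hmox1 is 17.5 FPKM.

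The sum of biliary and progenitor markers was highest in the tumor, like Gpx2, Cbr3 and Slc7a11, but single markers went both ways. The 7 markers summed to 2078 FPKM in the tumor against 271 in non-tumor tissue and 27.6 in the 12M Srsf2f/f liver, and to 398.6 FPKM in the 2M HKO liver against 23.0 in the 2M Srsf2f/f liver. Spp1 (osteopontin) made up nearly all of the tumor sum, at 2035 FPKM against 247.7 in the non-tumor section, while Krt7, a keratin of bile ducts, had 0.332 FPKM in the tumor against 5.77 in the non-tumor section. Of the 7 biliary and progenitor markers, 3 were over 1 FPKM in the tumor against 6 in the non-tumor section. Of the 4 over 5 FPKM, 3 were called higher and 1 lower, and the lowest log2 ratio of the list was -4.42. Stellate cell and myofibroblast markers summed to 144.1 FPKM in the tumor against 66.7 in the non-tumor section, and the 5 of 7 that were over 5 FPKM were called higher (2 after rescaling). Lrat, a marker of quiescent stellate cells, had 0.6835 FPKM in the tumor against 3.22 in the non-tumor section. Endothelial markers summed to 186.5 FPKM in the tumor against 49.3 in the non-tumor section. Of the 4 endothelial markers over 5 FPKM, Pecam1, Cdh5 and Kdr were called higher and Clec4g, a marker of sinusoidal endothelium, lower at -5.83. Of all 6, 3 were over 1 FPKM in the tumor against 6 in the non-tumor section. Red cell markers summed to 1407 FPKM in the tumor against 343.6 in the non-tumor section, with the 4 hemoglobin genes called higher and Alas2, of heme synthesis in red cell precursors, lower at -1.35. Of all genes tested in tumor over non-tumor tissue, 17.7% were called higher and 8.43% lower. The part of these cell types in Gpx2, Cbr3 and Slc7a11 was not tested.

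Set side by side, the comparisons differed in how many members were called, and no member was called lower in any. In 2M HKO over 2M Srsf2f/f liver, 5 of the 8 members over 5 FPKM were called higher (Nqo1, Srxn1, Hmox1, Gsr and Cbr3), where 19.2% of 7220 genes were called higher and 6.98% lower. All 10 members had the higher level in the 2M HKO liver, each with a counting interval above 1 or a count of 0 in the control. These intervals leave out the shift of 0.25 between the libraries given below, and all 10 log2 ratios stayed above 0 after rescaling. The share of all genes with a higher level was not counted. The median log2 ratio of the members over 5 FPKM was 1.84, beside 0.23 over all genes tested. In tumor over non-tumor tissue, 3 of 9 were called higher (Nqo1, Gpx2 and Cbr3), where 17.7% of 7618 genes were called higher and 8.43% lower. There the median was 0.31, beside 0.23 over all genes tested, and Txnrd1, Hmox1 and Gsr had intervals wholly below 1. The study's own gene lists from these libraries hold Nqo1, Gpx2 and Cbr3, so their direction in the tumor is not independent evidence about the set.

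In non-tumor tissue over 12M Srsf2f/f liver, 1 of 7 members was called higher (Srxn1), where 6.14% of 6481 genes were called higher and 1.73% lower. All 10 members had the higher level in the non-tumor section, 9 of them with intervals above 1 or a control count of 0, and Hmox1 turned to -0.11 after rescaling. These intervals leave out the shift of 0.19 between the libraries, and the rescaled log2 ratios of Gclm and Nqo1 were 0.07 and 0.14. The median of the members over 5 FPKM was 0.39, beside 0.14 over all genes tested. In tumor over 12M Srsf2f/f liver, 4 of 9 were called higher (Nqo1, Srxn1, Gpx2 and Cbr3), where 27.4% of 7553 genes were called higher and 9.49% lower. In 12M over 2M Srsf2f/f liver, 0 of 7 were called, where 2.39% of 6114 genes were called higher and 2.09% lower. The members' log2 ratios in that comparison of control livers ran from -0.17 for Txnrd1 to 0.71 for Cbr3, which stayed under 1 FPKM in both. The tumor comparisons share the tumor library and the 12M Srsf2f/f comparisons share that control.

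**Figure D3:**
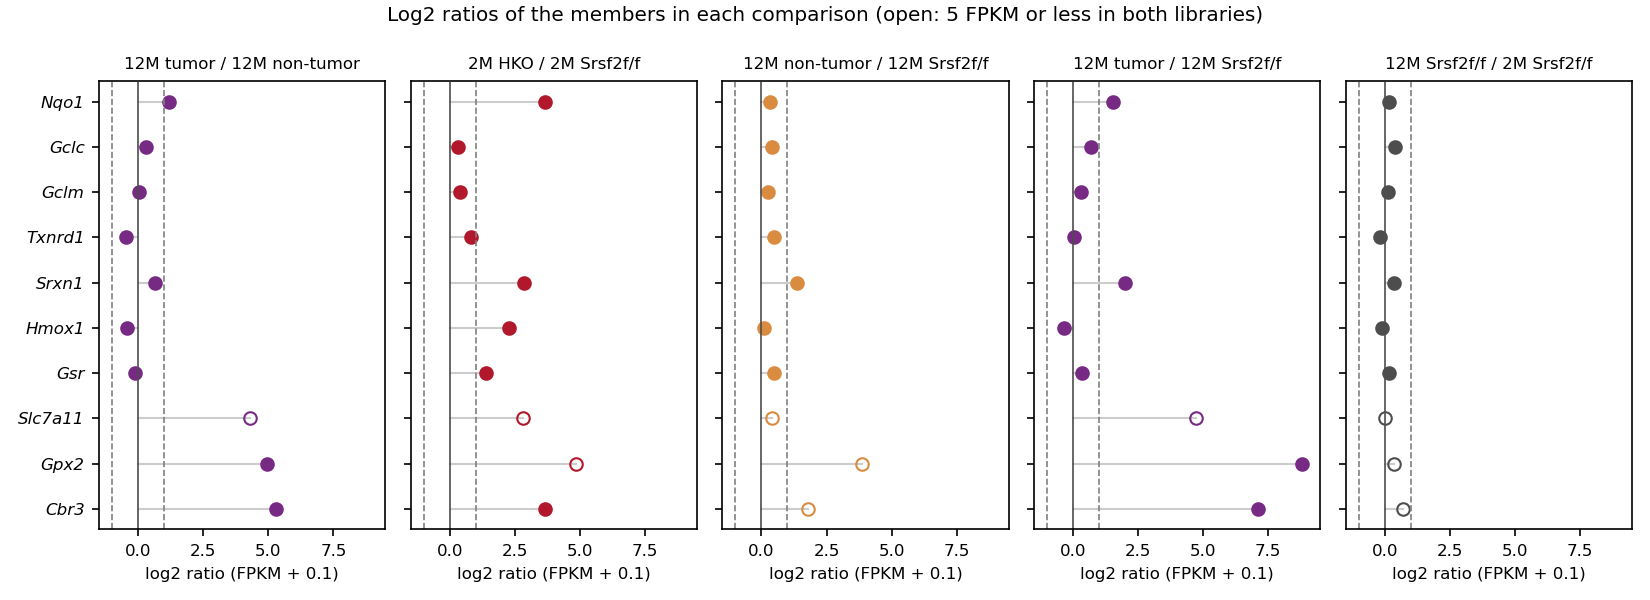
Log2 ratio of FPKM with 0.1 added (horizontal axis) for each member in each of the 5 comparisons, the library named first over the one named second. Dashed lines mark -1 and 1 and open circles mark members with 5 FPKM or less in both libraries; Nqo1, Srxn1, Hmox1, Gsr and Cbr3 are filled and past 1 at 2M, and Nqo1, Gpx2 and Cbr3 in tumor over non-tumor tissue.

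**Figure D4:**
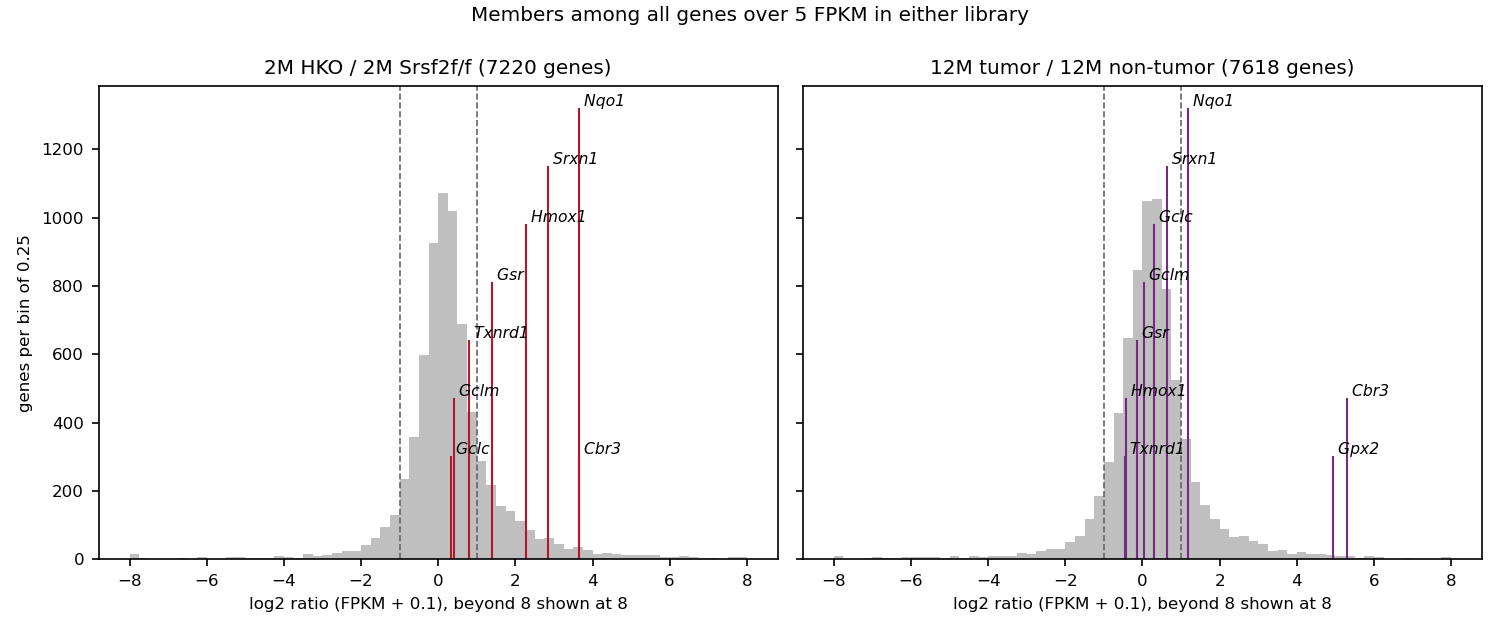
Histogram of log2 ratios (genes per bin of 0.25) over all genes with over 5 FPKM in either library, for 2M HKO over 2M Srsf2f/f liver (left, 7220 genes) and tumor over non-tumor tissue (right, 7618 genes), with a line for each member over 5 FPKM, whose height has no meaning. At 2M 5 of 8 members lie right of the dashed line at 1, and in the tumor 3 of 9.

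More genes were called higher than lower in the 2M HKO, tumor and non-tumor libraries, and small ratios depended on the scaling. The median of 9099 expressed genes was shifted by 0.25 on the log2 scale in 2M HKO over 2M Srsf2f/f liver, 0.16 in tumor over non-tumor tissue, 0.19 in non-tumor tissue over 12M Srsf2f/f liver and 0.35 in tumor over 12M Srsf2f/f liver. Higher calls made up 73.3% of all calls at 2M as deposited and 58.2% after rescaling by that shift. The same shares were 67.8% and 56.2% in tumor over non-tumor tissue, 78.0% and 63.5% in non-tumor tissue over 12M Srsf2f/f liver, and 74.2% and 54.7% in tumor over 12M Srsf2f/f liver. No call of a member changed with rescaling, and Nqo1 in tumor over non-tumor tissue came closest to the threshold at 1.03. In tumor over 12M Srsf2f/f liver, 9 of 10 members had the higher level in the tumor as deposited and 6 after rescaling.

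The regulators of Nrf2 were mostly not called. Nfe2l2 had 46.4 FPKM in the 2M HKO liver against 24.5 in the 2M Srsf2f/f liver, and 42.3, 30.5 and 27.0 FPKM in the 12M tumor, non-tumor and Srsf2f/f libraries. Its log2 ratio was 0.92 at 2M and 0.47 in tumor over non-tumor tissue, short of a call in both. Keap1 had 15.4 FPKM in the 2M HKO liver against 10.6 in the 2M Srsf2f/f liver, and 13.1 in the tumor against 15.2 in the non-tumor section. Maff, a small Maf partner, was the one regulator called higher in each of these comparisons, at 13.3 FPKM in the 2M HKO against 3.54 in the 2M Srsf2f/f liver and 23.2 in the tumor against 7.76 in the non-tumor section. The log2 ratios of Maff were 1.89 and 1.57, and 2.01 in tumor over 12M Srsf2f/f liver, where Mafk was also called at 1.51. The shares of all genes tested called higher in these 3 comparisons were 19.2%, 17.7% and 27.4%. Bach1, a repressor that competes with Nrf2 for its sites and holds Hmox1 down, had log2 ratios of -0.50 at 2M and 0.73 in tumor over non-tumor tissue. Mafg, Cul3, Rbx1, Nfe2l1 and Sqstm1 were called nowhere, with log2 ratios from -0.37 for Nfe2l1 at 2M to 0.55 for Rbx1 in tumor over non-tumor tissue within these 2 comparisons. Sqstm1 (p62, which binds Keap1) had 226.6 FPKM in the 2M HKO liver against 172.3 in the 2M Srsf2f/f liver, and 357, 289.5 and 226.8 FPKM in the 12M tumor, non-tumor and Srsf2f/f libraries. These are transcript levels, while Nrf2 is controlled largely through protein stability.

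Most genes of a list of 5 further glutathione enzymes and carriers were called higher in the tumor as deposited. Gpx1 was called lower there, as given above, and glutathione S-transferases went in both directions, as given below. Of the 5 listed genes, all over 5 FPKM, 4 were called higher in tumor over non-tumor tissue (2 after rescaling), with a median of 1.13. The share of all genes tested called higher there was 17.7%. Ggt1 (gamma-glutamyltransferase, which breaks down extracellular glutathione) had 5.44 FPKM in the tumor and 0 fragments in the non-tumor section, at least 143-fold higher. Ggct was at a log2 ratio of 2.11. Slc3a2, the partner chain of Slc7a11, at 1.13, and Gss, which completes glutathione, at 1.11, came under 1 after rescaling. At 2M, 2 of 4 were called higher, Ggct at 1.49 and Gss at 1.27, where 19.2% of all genes tested were called higher. None of 3 was called in non-tumor tissue over 12M Srsf2f/f liver.

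Of the other enzymes of quinones, carbonyls and epoxides, 6 of 11 were called higher and 1 lower at 2M, with a median of 1.37. In tumor over non-tumor tissue 3 of 9 were called higher, with a median of 0.07. Of all genes tested, 19.2% were called higher and 6.98% lower at 2M, and 17.7% and 8.43% in tumor over non-tumor tissue. At 2M Akr1b7, an aldose reductase-like enzyme, had 33.0 FPKM in the HKO liver against 0.298 in the Srsf2f/f liver, a log2 ratio of 6.38, and Akr1b10 was at 2.15. Ptgr1, which reduces reactive alkenals, was called in both, at 3.02 at 2M and 2.99 in tumor over non-tumor tissue. Akr1b8 was at 1.60 and Cbr1 at 1.16 in the tumor comparison, where Cbr1 was no longer past 1 after rescaling. None of 7 was called in non-tumor tissue over 12M Srsf2f/f liver, with Ugdh nearest at 0.87.

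Inducible glutathione S-transferases went in both directions. At 2M 6 of 13 were called higher (5 after rescaling) and 3 lower, with Gsta1 at 4.96, Gstm3 at 3.02 and Gsta2 at 1.71. In non-tumor tissue over 12M Srsf2f/f liver 5 of 13 were called higher (4 after rescaling) and none lower, with Gsta1 at 3.64, Gstm3 at 3.33 and Gsta2 at 1.43. In tumor over non-tumor tissue 1 of 13 was called higher and 3 lower as deposited, and 0 and 4 after rescaling, with Gstm6 at -1.75, Mgst1 at -1.30 and Gstm2 at -1.09. The shares of all genes tested called higher and lower were 19.2% and 6.98% at 2M and 17.7% and 8.43% in tumor over non-tumor tissue. They were 6.14% and 1.73% in non-tumor tissue over 12M Srsf2f/f liver. The Gsta and Gstm families hold near-identical paralogs, so the values of single genes are uncertain.

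NADPH, which Gsr, Txnrd1, Nqo1 and Cbr3 use, comes in part from the pentose phosphate pathway. Its enzyme genes G6pdx and Pgd were called higher in 2M HKO over 2M Srsf2f/f liver, at 2.23 and 1.89, while Me1, the cytosolic malic enzyme, was called lower at -2.19. G6pdx had 11.5 FPKM in the 2M HKO liver against 2.37 in the 2M Srsf2f/f liver, and Me1 had 19.1 in the 2M HKO against 87.2 in the 2M Srsf2f/f liver. In tumor over non-tumor tissue Me1 was called lower at -1.84, with 22.0 FPKM in the tumor against 78.9 in the non-tumor section, G6pdx was at 0.87, and none of 6 genes was called higher. Pgd was the one called in non-tumor tissue over 12M Srsf2f/f liver, at 1.38. Srxn1 and Txnrd1 act on peroxiredoxins and thioredoxins. Of 10 thioredoxin and peroxiredoxin genes, 0 were called in tumor over non-tumor tissue, where Prdx1 was at -0.94 as deposited and at -1.10 after rescaling. In tumor over 12M Srsf2f/f liver 1 of 10 was called lower (2 after rescaling). This was Prdx1 at -1.30, with 335.8 FPKM in the tumor against 824.9 in the 12M Srsf2f/f liver. At 2M 1 of these 10 was called, Sesn2 at 1.15, which came to 0.90 after rescaling. Txnip, an inhibitor of thioredoxin, was called lower in non-tumor tissue over 12M Srsf2f/f liver at -1.06. Of all genes tested, 19.2% were called higher and 6.98% lower at 2M, and 17.7% and 8.43% in tumor over non-tumor tissue. The shares were 6.14% and 1.73% in non-tumor tissue over 12M Srsf2f/f liver, and 27.4% and 9.49% in tumor over 12M Srsf2f/f liver.

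None of 6 genes of heme and iron handling was called in any comparison, including 2M HKO over 2M Srsf2f/f liver, where Hmox1 was called. Slc40a1, the iron exporter, was at 0.80, Blvra, which reduces the biliverdin that heme oxygenase makes, at 0.73 and Fth1, the ferritin heavy chain, at 0.44 at 2M. Ftl1, the ferritin light chain, was at -0.83 in tumor over non-tumor tissue. Among 9 other antioxidant enzymes, Gpx3, the secreted peroxidase, was called higher at 2M at 4.89, with 121 FPKM in the HKO liver against 3.98 in the Srsf2f/f liver. Gpx3 was at 3.16 in non-tumor tissue over 12M Srsf2f/f liver, and at 1.16 in tumor over non-tumor tissue, where it was no longer past 1 after rescaling. Cat, the catalase gene, was called lower at 2M at -1.30 and was at -0.79 in tumor over non-tumor tissue. Sod3, the extracellular superoxide dismutase, was at 1.46 at 2M. Of all genes tested at 2M, 19.2% were called higher and 6.98% lower.

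Efflux pumps of conjugates, Abcc4 at 2.85 and Abcg2 at 1.06, were called in tumor over non-tumor tissue, 2 of 4 genes, and Abcg2 came to 0.90 after rescaling. Of all genes tested there, 17.7% were called higher and 8.43% lower. None of 3 was called at 2M. Slc7a11 is also known as a target of Atf4. Of 4 genes of the Atf4 list over 5 FPKM, 3 were called higher in tumor over non-tumor tissue. Their median was 2.02, and 17.7% of all genes tested were called higher there. Psat1, of serine synthesis, was at 3.59, Trib3 at 2.35 and Ddit3, encoding Chop, at 1.68. At 2M 1 of 2 was called, Asns at 1.22, which came to 0.98 after rescaling, and Atf4 itself was at -0.28. The share of all genes tested called higher at 2M was 19.2%. In non-tumor tissue over 12M Srsf2f/f liver 0 of 3 were called higher and 1 lower, and the lowest log2 ratio of the list was -4.01. In tumor over 12M Srsf2f/f liver 3 of 5 were called higher and 1 lower, and the lowest log2 ratio of the list was -2.82. Of all genes tested, 6.14% were called higher and 1.73% lower in non-tumor tissue over 12M Srsf2f/f liver. The shares were 27.4% and 9.49% in tumor over 12M Srsf2f/f liver. A part of Atf4 in the Slc7a11 level was not tested. Nqo1 is also a target of the Ah receptor. Cyp1a2, another target of that receptor, was called lower, at -1.63 at 2M and -3.00 in tumor over non-tumor tissue. Ahr was at 2.46 at 2M and at -1.43 in tumor over non-tumor tissue. The 6 genes of the Ah receptor list ran from -1.63 to 2.81 at 2M and from -3.00 to 0.88 in tumor over non-tumor tissue. Of these 6, 2 were over 5 FPKM in each comparison. A part of that receptor in the Nqo1 level was not tested.

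**Figure D5:**
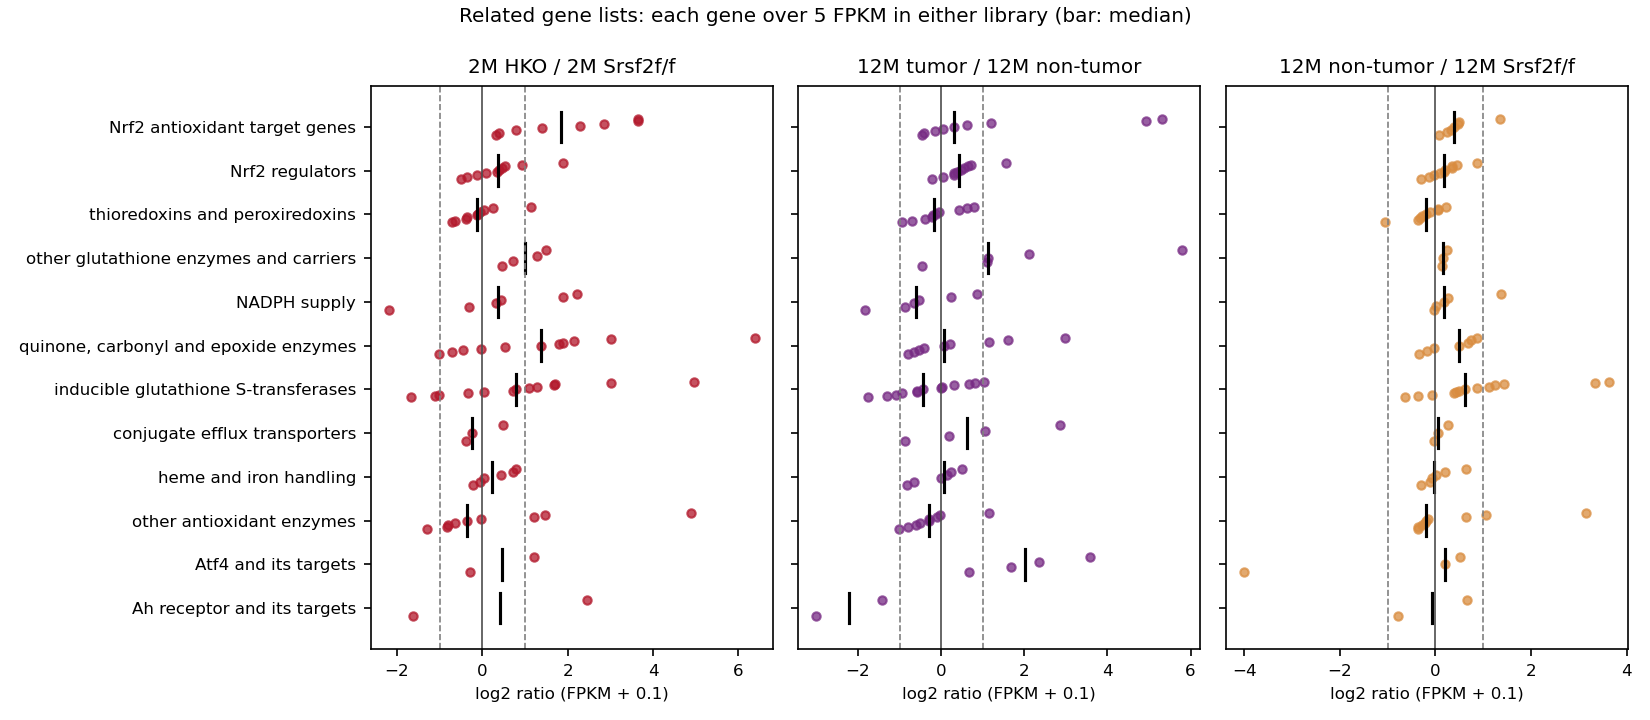
Log2 ratio of FPKM with 0.1 added for each gene over 5 FPKM in either library (points) and the median of each list (bars), for 2M HKO over 2M Srsf2f/f liver, tumor over non-tumor tissue and non-tumor tissue over 12M Srsf2f/f liver. Dashed lines mark -1 and 1; the members' median is 1.84 at 2M, 0.31 in tumor over non-tumor tissue and 0.39 in non-tumor tissue over 12M Srsf2f/f liver.

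The members did not share 1 pattern over the 5 libraries. Likeness was measured as the distance between centred log2 levels over the libraries, where 0 is the same pattern, and is a description over 5 points with no test. The closest pairs of members were Txnrd1 and Gsr at 0.51, and Gclc and Gclm at 0.61. Among 7734 genes the nearest to Gpx2 was Cxcr4 at 1.26, and the second was Cbr3 at 1.80. The nearest to Cbr3 was Tspan8 at 0.50, with 69.5 FPKM in the tumor against 2.64 in the non-tumor section. The nearest to Nqo1 was Lilr4b at 0.46, to Srxn1 Tlr2 at 0.28, and to Hmox1 Lipt2 at 0.32. Gclc lay nearest to Sqstm1, at 0.11, Gclm to Med22, at 0.06, and Txnrd1 to Igf2r, at 0.05. Gsr lay nearest to Klf3, at 0.09, and Slc7a11 to Nck2, at 0.59.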

How the data were processed

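Total RNA of 5 mouse liver samples was sequenced by the authors, 1 library per group. The authors deposited FPKM for 46095 gene records with gene lengths and coordinates. Bowtie 0.12.2 and GRCm38 are named in the submitters' processing notes. The counting tool and its use of strand are not given in the sources used here. In each library 98.7% to 98.8% of values above 0, once multiplied by gene length, came out whole (within 0.01) in units of a single step. Fragments and library totals (34969834 to 36104176) were worked back from it. Even counts made up 58.8% to 61.0% of counts from 2 to 21. Paired reads may therefore each have been counted, which would make the intervals too narrow. All sample columns were mapped to the labels.

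Log2 ratios were taken over the whole table with 0.1 FPKM added, and called with the fold rule of the study's methods (past 1 or -1, with a level above 5 FPKM in 1 or both libraries) but without its p-value. The authors' EBSeq run was not repeated. Intervals are 95%, exact binomial for ratios and exact Poisson for levels, and a count of 0 was set to 3 fragments for bounds, below the upper end of its Poisson interval. For rescaling, each library was divided by its median ratio to the geometric mean of the libraries, for which 9099 genes above 1 FPKM in all 5 libraries were used. Replicate tests were not possible.

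The members and lists were chosen with earlier results of these data known. Named genes are the 10 members, all Nrf2 regulators, from each other pathway list up to 3 genes with the largest absolute log2 ratio in 3 comparisons (tumor over non-tumor, 2M HKO over Srsf2f/f, non-tumor over 12M Srsf2f/f), the genes nearest in pattern to each member, Srsf2 and close paralogs. Gpx1 is named as a paralog, and Spp1, Krt7, Clec4f, Timd4, Marco, Lrat, Pecam1, Cdh5, Kdr, Clec4g and Alas2 as cell type markers. Promoters are from RefSeq GRCm38.p6, and shared stretches of 50 bases were counted over GENCODE vM21 transcripts. Other pseudocounts, FPKM minimums and scalings were tried, and predicted genes were left out in 1 alternative. The ratio rule was tried on data simulated from the 2M Srsf2f/f library with counting error only. That simulation holds no differences between mice and so says nothing about them. Scripts ran in Python 3.11.15 (numpy 2.4.6; scipy 1.17.1; pandas 2.3.3), and figures in matplotlib 3.10.9.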

Additional observations from a re-analysis of the deposited data

Results flagged for a closer look

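Hmox1 went in opposite directions in the 2M HKO liver and the 12M tumor when each was set against the Srsf2f/f liver of its age. Its log2 ratio was 2.28 in 2M HKO over 2M Srsf2f/f liver and -0.34 in 12M tumor over 12M Srsf2f/f liver. The 12M non-tumor section was at 0.08 over the 12M Srsf2f/f liver, with a counting interval of the ratio from 0.977 to 1.14. Differences between these ratios were not tested, since each group has 1 library, and the tumor ratio is short of a call.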

How the results depend on the processing

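Counts of members called moved with the FPKM minimum in 4 of the 5 comparisons, by over 1.5 times in 1. In non-tumor tissue over 12M Srsf2f/f liver, 1 member was called higher as reported (Srxn1), 3 with a minimum of 1 FPKM or with no minimum (Srxn1, Gpx2 and Cbr3), and 2 on values rescaled to TPM (Srxn1 and Cbr3). The share of all genes tested called higher there also moved. It was 6.14% as reported, 10.6% with a minimum of 1 FPKM, 5.58% with no minimum and 9.02% on TPM. The other counts stayed within 1.5 times under the 7 alternatives run, and no member was called lower under any of them. With a minimum of 1 FPKM, 4 members were called in tumor over non-tumor tissue, 6 at 2M and 5 in tumor over 12M Srsf2f/f liver, where Slc7a11, Gpx2 and Slc7a11 were added. The shares of all genes tested called higher at that minimum were 20.2%, 25.8% and 31.4%. With no minimum, 7 members were called at 2M, where 10.7% of all genes were called higher. Of 200 ratios of single members under the other pseudocounts and scalings, 196 kept their call or lack of one, 4 gained a call, 0 lost one and 0 called ones reversed. The 4 were on TPM: Slc7a11 in tumor over non-tumor tissue at 4.95 and over 12M Srsf2f/f liver at 5.69, Gpx2 at 2M at 5.83, and Cbr3 in non-tumor tissue over 12M Srsf2f/f liver at 1.94. These counts cover the call only, and a member that was not called had none to lose. With a pseudocount of 1, Slc7a11 fell from 4.29 to 1.77 in tumor over non-tumor tissue. At 2M it fell from 2.80 to 0.67, and Gpx2 from 4.85 to 1.92. Several ratios near 0 that were not called changed sign with rescaling, as given above. No library could be left out, and no paired analysis was possible because each group has 1 library. The precision of Slc7a11, Gpx2 and Cbr3 in the Srsf2f/f livers, at 0 to 29 fragments, is limited by depth, and differences between mice could not be measured for any gene.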
